A study of Homo sapiens with 15 samples.

Results

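Ribosome biogenesis and RNA polymerase I genes were read in UKE-1 cells as a module of 48 named genes, out of 58735 genes in the count table. The members were listed by function, with earlier results of these data known: 7 encode RNA polymerase I or its initiation factors, 6 the core proteins of small nucleolar ribonucleoproteins (snoRNPs), 5 nucleolar scaffold proteins and helicases, 14 assembly factors of the small ribosomal subunit and 16 assembly factors of the large subunit. All 48 members passed the filter on low counts, which left 16146 genes for testing.

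UKE-1 is a human myeloid cell line, established from a patient with essential thrombocythaemia that had turned into leukaemia, and it carries an activating JAK2 mutation. The 15 libraries formed 5 groups of 3: cells given TNF-α with both MCL and ruxolitinib, cells given TNF-α with MCL, cells given TNF-α with ruxolitinib, cells given TNF-α alone, and untreated cells. MCL is read here as micheliolide, a sesquiterpene lactone that the series title names. Ruxolitinib inhibits JAK1 and JAK2, the kinases that pass cytokine signals to STAT proteins. The labels place RNA collection at 3 h after treatment. All 4 treated groups received the inflammatory cytokine TNF-α, so both single-drug groups and the combination are set against TNF-α alone, and these comparisons share the same 3 TNF-α libraries. The sources used here do not give the doses, how long TNF-α had acted, or whether replicate libraries stem from separate cultures. Every p-value thus refers to the spread among these libraries, which may be technical, and every result describes 1 cell line.

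Ribosomes are built in the nucleolus. RNA polymerase I, brought to the ribosomal DNA by the factors UBF and SL1 and by RRN3, copies the long rRNA precursor, and snoRNPs guide the methylation and pseudouridylation of that RNA. A large set of assembly factors then cuts, folds and exports the precursors of the small and large subunits. Growing blood and leukaemia cells make ribosomes at a high rate, and the transcription factor MYC, which binds the sequence CACGTG, is a known activator of many of these genes. The libraries measured the mRNAs of the assembly machinery, not rRNA synthesis or ribosome numbers. In bulk RNA, fewer cells of a kind and less RNA per cell cannot be told apart.

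Promoter sequences are shown because 3 motifs were searched in them, to be read beside the expression values. RefSeq's promoter table for GRCh38.p14, which holds 250 bases before and 50 bases after each gene's start, had an entry for 40 of the 48 members. The hexamer CACGTG, which reads the same on both strands, lay in 11 of these 40 windows (27.5%), against 10.2% of the 10374 windows of tested genes and 7.26% of all 35116 windows. In all 11 members the hexamer began within 50 bases of the start on either side, whereas that held for 39.9% of the 1059 tested-gene windows that contain it. The windows of 10 of these members follow, 30 bases each, 5′ to 3′ on the gene's strand, with CACGTG in capitals; they were picked after the motif count was seen. The hexamer of the remaining member, NOP2, began 36 bases after the start, too near the window's end for the same length to be shown.
UTP4, chr16:69132621-69132650, plus strand: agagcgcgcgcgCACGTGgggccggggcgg
UTP20, chr12:101280083-101280112, plus strand: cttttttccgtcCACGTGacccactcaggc
RRP9, chr3:51941892-51941921, minus strand: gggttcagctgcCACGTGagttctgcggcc
WDR43, chr2:28894658-28894687, plus strand: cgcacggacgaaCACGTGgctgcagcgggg
FBL, chr19:39846356-39846385, minus strand: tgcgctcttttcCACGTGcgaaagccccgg
PNO1, chr2:68157885-68157914, plus strand: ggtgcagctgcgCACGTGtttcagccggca
PES1, chr22:30591880-30591909, minus strand: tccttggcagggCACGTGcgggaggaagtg
MRTO4, chr1:19251807-19251836, plus strand: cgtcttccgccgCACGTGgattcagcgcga
NOP14, chr4:2963374-2963403, minus strand: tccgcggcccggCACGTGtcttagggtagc
BYSL, chr6:41921515-41921544, plus strand: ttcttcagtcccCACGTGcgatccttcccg

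The hexamer began between 16 bases before the start, in UTP4, and 36 bases after it, in NOP2. A pattern known for STAT factors, TTCNNNGAA, which also reads the same on both strands, lay in 3 of the 40 member windows (7.5%), against 6.31% of tested-gene windows and 7.66% of all windows. The third motif searched, the 10-base palindromic CGCG element that the factor BANP binds, lay in 1 of the 40 member windows (2.5%), that of NOP14, against 0.906% of tested-gene windows and 0.424% of all windows. The 3 carriers of TTCNNNGAA are shown because ruxolitinib blocks the kinases that activate STAT proteins; the 9 bases of the pattern are in capitals.
POLR1B, chr2:112542012-112542041, plus strand: catccgctttTTCGTTGAAgcaacgacttt
DDX56, chr7:44573985-44574014, minus strand: ccgccagcacTTCCGGGAAgtgacttcgtc
TAF1D, chr11:93741544-93741573, minus strand: gctcgccttcTTCCCGGAAgctaagttgta

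The median GC content was 61.5% in member windows and 65.0% in tested-gene windows. A match is a run of letters and not a measured binding site, and factor binding was not measured in this series. RefSeq and the annotation of the count table, whose gene models begin at their outermost transcript, place the start differently for 39 of the 40 members, with a median distance of 238 bases. In 17 members the distance exceeded the window's 300 bases. Among the members shown it was 42896 bases in TAF1D, 15173 in PES1, 1358 in UTP4, 1143 in DDX56 and 311 in BYSL. It was 266 in MRTO4 and 121 in POLR1B, and smaller in the other members shown. Which start these cells use was not measured.

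Library totals ran from 15476399 to 18035604 counts, and the tested genes held at least 99.848% of them. The blood cell markers PTPRC (296 to 354 CPM), CD34 (958 to 1290 CPM), GATA2, SPI1, RUNX1, MYB, KIT, CD33 and ITGAM were present in every library, whereas CD38 stayed at or under 0.371 CPM. Of these 10 markers, 7 had their lowest mean with both drugs, and their summed level was 1788 to 1850 CPM with both drugs, 2289 to 2300 with MCL, 2776 to 2811 with ruxolitinib, 2743 to 2810 with TNF-α alone and 2688 to 2706 CPM in untreated cells. GATA2 averaged 128 CPM with both drugs against 551 with TNF-α alone, SPI1 77.0 against 218, MYB 71.3 against 130, CD33 37.1 against 64.0 and ITGAM 8.68 against 19.3 CPM. EPCAM, CDH1 and MS4A1, which mark epithelial cells and B cells, had 0 reads in all libraries, the fibroblast marker DCN had 1 read and the hepatocyte marker ALB had 4. The keratin genes KRT8 and KRT18 were read at 39.6 to 104 CPM. KRT18 averaged 62.4 CPM with both drugs, 69.1 with MCL, 69.5 with ruxolitinib, 80.5 with TNF-α alone and 98.9 CPM in untreated cells. Mitochondrial transcripts took 4.21 to 4.46% of counts with both drugs, 4.35 to 4.78% with MCL, 5.44 to 5.53% with ruxolitinib, 4.94 to 5.21% with TNF-α alone and 5.10 to 5.32% in untreated cells. The part of this share, of the blood cell markers and of KRT18 in the differences below was not tested.

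The summed level of the module was lowest with both drugs and highest in untreated cells. Counts of each library were scaled to a common total with TMM factors and are given as CPM. Summed over the 48 members, the libraries with both drugs held 7011, 7070 and 7321 CPM, and the MCL libraries held 8620, 8826 and 8598 CPM. The ruxolitinib libraries held 7768, 7902 and 7800 CPM, the TNF-α libraries 8961, 8894 and 9021 CPM, and the untreated libraries 9592, 9518 and 9693 CPM. No library of 1 group overlapped a library of another in this sum. NCL and NPM1 weigh most in it, with means of 1327 and 1435 CPM with both drugs. The means were 7134 ± 164 CPM with both drugs, 8681 ± 126 with MCL, 7823 ± 70.0 with ruxolitinib, 8959 ± 63.1 with TNF-α alone and 9601 ± 87.8 CPM in untreated cells (SD, n = 3 each).

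By single gene, the lowest mean was in the cells given both drugs for 36 members and in the ruxolitinib cells for the other 12. The highest mean was in untreated cells for 42 members, with MCL for 4 (FBL, NOP14, RRP12 and NOB1) and with TNF-α alone for 2 (RRN3 and NOP2). The lowest and highest groups were not counted over all tested genes, so these counts have no background beside them. All 48 members differed among the 5 groups in edgeR's quasi-likelihood test at an adjusted p under 0.05, as did 67.5% of all tested genes. The same test and threshold, with Benjamini-Hochberg adjustment over all tested genes, define a called change in what follows.

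**Figure D1:**
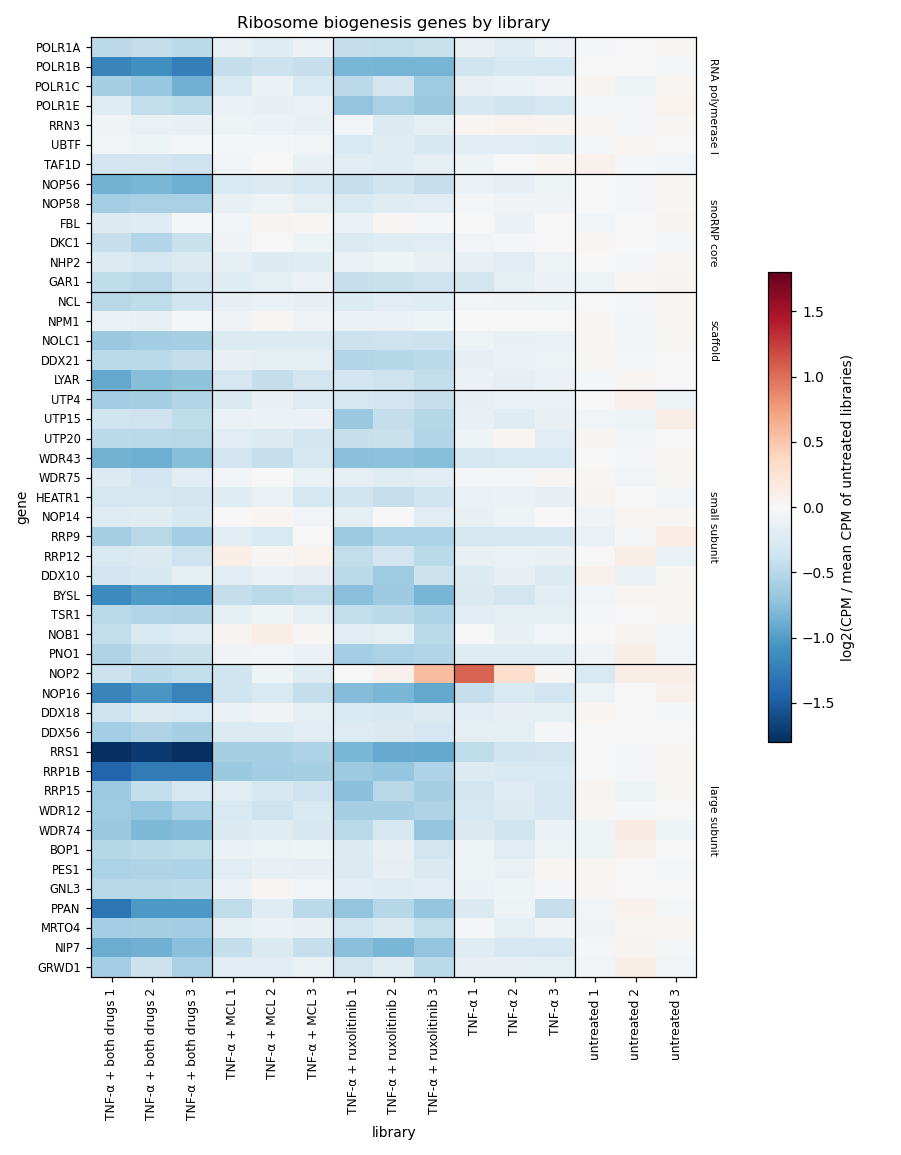
Log2 ratio of each member's CPM to its mean in untreated cells, with genes in rows by role and the 15 libraries in columns by group. Blue is lower and red is higher than in untreated cells. RRS1, RRP1B, POLR1B and NOP16 are darkest with both drugs, and NOP2, the member with the fewest reads, is the row whose TNF-α libraries differ most.

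The members spanned a wide range of levels. Per kilobase of gene model, the mean over all libraries ran from 0.354 CPM for NOP2 to 387 CPM for NPM1, with a median of 22.2 CPM. The NOP2 level is uncertain, as an annotated read-through gene overlaps it on the same strand. NCL and NPM1, which encode the abundant nucleolar proteins nucleolin and nucleophosmin, had 21967 to 31811 and 22694 to 26817 reads per library. Processed pseudogenes of NPM1 are numerous, and the sources used here do not say how reads that match several places were counted, so its level is uncertain.

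Members lay on 19 chromosomes, 9 of them on chromosome 2. In 10 members the gene body encloses annotated small nucleolar RNA genes, 36 in all, led by TAF1D with 8, GNL3 with 6 and NOP56 with 5. 20 members overlap another tested gene, 17 of them one on the opposite strand, and 18 have a tested gene whose opposite-strand start lies near their own. The sources used here do not say whether the counting used strand, so reads of such overlapping pairs cannot be told apart.

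Ruxolitinib lowered most of the module. Against TNF-α alone, 41 of 48 members fell, 0 rose and 7 did not pass, while 10.6% of all tested genes were called lower and 5.15% higher. The median log2 change was -0.27 over the members and -0.01 over all tested genes. By role, 6 of 7 RNA polymerase I genes, 4 of 6 snoRNP genes, 5 of 5 scaffold genes, 13 of 14 small-subunit factors and 13 of 16 large-subunit factors fell. In 41 members the 3 ruxolitinib libraries all lay below the 3 TNF-α libraries, a pattern seen in 17.5% of tested genes. No member passed in the upward direction; the 7 that did not pass were UBTF, FBL, NHP2, NOP14, NOP2, DDX18 and BOP1.

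MCL moved a few genes in both directions, and most of the module did not pass. Against TNF-α alone, 9 members fell, 4 rose and 35 did not pass, and 15.1% of all tested genes were called lower and 10.9% higher, so the share of members called lower (18.8%) was close to the background. The median log2 change was -0.04 over members and -0.02 over all tested genes. RRP1B, with a log2 change of -0.36 ± 0.04 (SE), LYAR with -0.23 ± 0.06 and RRS1 with -0.20 ± 0.05 fell by the most, and RRP12 (0.20 ± 0.05), POLR1E (0.20 ± 0.07) and UBTF (0.17 ± 0.03) rose by the most. The remaining calls were RRP9, which rose by 0.16, and NOLC1, NOP56, RRN3, UTP20, BYSL and DDX56, which fell by 0.11 to 0.19. The UTP20 call was lost without MCL replicate 3 (-0.15) or TNF-α replicate 2 (-0.12), and the DDX56 call without MCL replicate 1 (-0.10), MCL replicate 2 (-0.10) or TNF-α replicate 3 (-0.07). The DDX56 call was also lost in DESeq2 (-0.10), with DESeq2's size factors (-0.10), with library totals (-0.08), with no filter (-0.09) and with only the groups compared (-0.10). Only 2 members rose without MCL replicate 3, TNF-α replicate 2 or TNF-α replicate 3.

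With both drugs, nearly the whole module was lower than with TNF-α alone. 45 of 48 members fell, 1 rose and 2 did not pass, against 29.3% of all tested genes called lower and 25.5% higher. The median log2 change was -0.36 over members and -0.03 over all tested genes, and the range over members was -1.41 to 0.16. The 6 snoRNP genes, 5 scaffold genes and 16 large-subunit factors all fell, as did 13 of 14 small-subunit factors and 5 of 7 RNA polymerase I genes. UBTF was the member that rose, and POLR1E and DDX10 did not pass. All 3 libraries with both drugs lay below all 3 TNF-α libraries in 43 members, a pattern seen in 32.2% of tested genes.

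The calls with both drugs were 41 lower in DESeq2 and 38 lower when library totals replaced the TMM factors. With library totals, DDX18, FBL, NHP2, NPM1, RRN3, RRP12 and RRP15 no longer passed, at log2 changes of -0.11 to -0.01. Over all tested genes, that scaling moved the share of calls that were higher to 56.6%, against 46.5% with TMM factors, for both drugs. The corresponding shares were 53.7% against 41.8% for MCL, 45.4% against 32.8% for ruxolitinib, and 42.4% against 53.0% for TNF-α set against untreated cells.

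**Figure D2:**
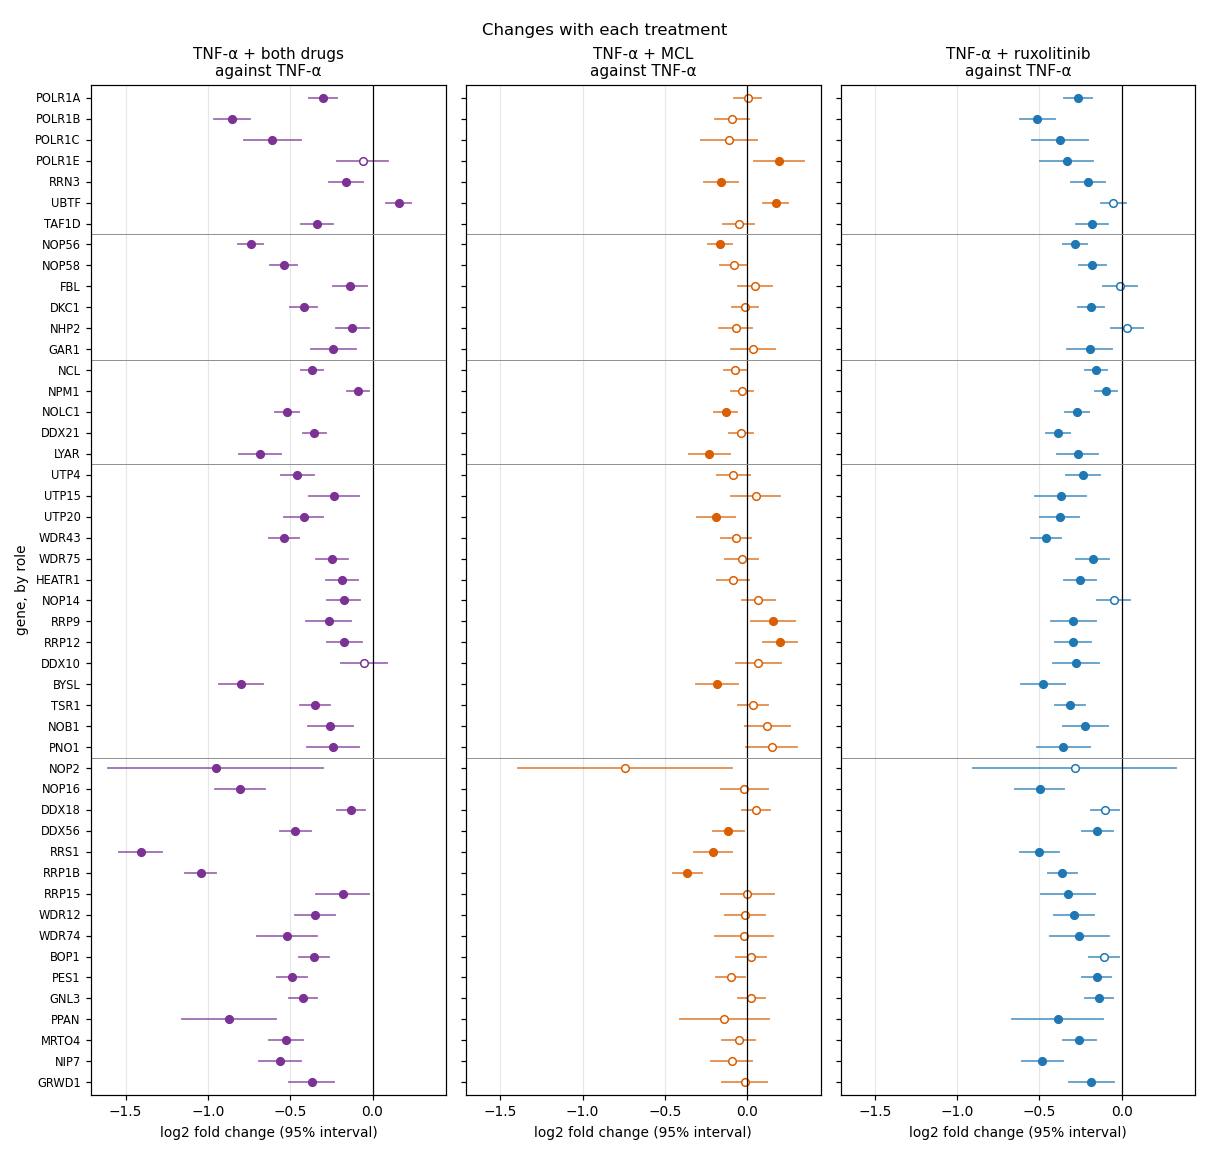
Log2 fold change of each member against TNF-α alone with its 95% interval, for both drugs (left), MCL (middle) and ruxolitinib (right). Filled points are called changes at an adjusted p under 0.05. Points lie left of 0 for 47 members with both drugs and for 47 with ruxolitinib, and on both sides of 0 with MCL.

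Read across the 3 drug groups, 28 members fell with both drugs and with ruxolitinib and did not pass with MCL, a pattern of 2.89% of all tested genes. 9 members fell in all 3 groups, as did 4.61% of all tested genes: BYSL, DDX56, LYAR, NOLC1, NOP56, RRN3, RRP1B, RRS1 and UTP20. 6 members, BOP1, DDX18, FBL, NHP2, NOP14 and NOP2, fell with both drugs and passed with neither drug alone. Their share was close to the 12.4% of all tested genes with this pattern. The calls of FBL, NHP2 and NOP2 with both drugs were each lost in some alternative runs, which are given below by gene. RRP9 and RRP12 rose with MCL and fell in the other 2 groups. POLR1E rose with MCL and fell with ruxolitinib, DDX10 fell with ruxolitinib, and UBTF rose with both drugs and with MCL. The DDX56 call with ruxolitinib was lost without ruxolitinib replicate 3 (-0.12) or TNF-α replicate 3 (-0.10), and the DDX18 call with both drugs without replicate 1 of both drugs (-0.09). These counts rest on the same TNF-α libraries in each comparison.

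TNF-α alone already lowered part of the module. Against untreated cells, 28 of 48 members fell, 0 rose and 20 did not pass, while 12.5% of all tested genes were called lower and 14.1% higher. The median log2 change was -0.13 over members and 0.00 over all tested genes. RRS1, with a log2 change of -0.38 ± 0.05, NOP16 with -0.34 ± 0.06 and POLR1B with -0.32 ± 0.05 fell by the most. All TNF-α libraries lay below all untreated libraries in 35 members, against 18.8% of tested genes, and above them in 1 member, RRN3, against 20.0%. RRN3 had a log2 change of 0.05 and did not pass.

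Set against untreated cells, 46 of 48 members were lower in the group given TNF-α and both drugs (29.1% of tested genes). With TNF-α and MCL 31 were lower (16.9%), and with TNF-α and ruxolitinib 46 were (19.0%). These comparisons hold the TNF-α difference together with that of the drugs, so they do not give a drug effect alone. 0 members rose in any of these 3 comparisons, in which 28.3%, 17.2% and 17.8% of tested genes were called higher. The median log2 changes of the members were -0.48 with both drugs, -0.16 with MCL and -0.39 with ruxolitinib. NOP2 passed in none of them, and RRN3, POLR1E, UBTF and the rest of the polymerase genes all fell with ruxolitinib on this scale. UBTF did not pass with both drugs against untreated cells, at a log2 change of -0.05.

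**Figure D3:**
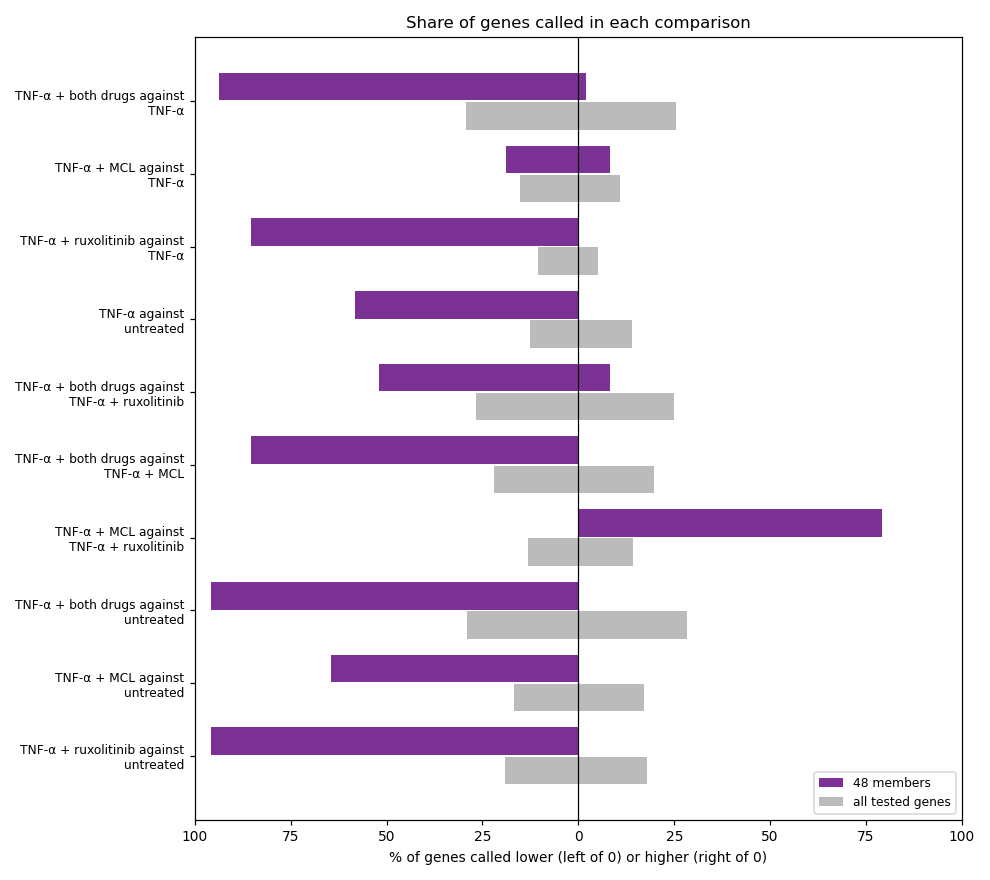
Percentage of genes called lower (bars left of 0) and higher (bars right of 0) in each comparison, for the 48 members in purple and for all 16146 tested genes in grey. The member bars extend to 93.8% lower with both drugs and 85.4% lower with ruxolitinib against TNF-α, and to 18.8% lower with MCL.

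RNA polymerase I itself was represented by POLR1A and POLR1B, the 2 largest subunits that form its active centre, POLR1C, a subunit shared with RNA polymerase III, and POLR1E, a subunit known to act in initiation. POLR1B (chr2:112541915-112577150) had 44.9, 47.7 and 43.9 CPM with both drugs, 76.4, 78.3 and 76.8 with MCL, 57.7, 57.5 and 57.6 with ruxolitinib, 80.1, 84.0 and 82.2 with TNF-α alone, and 102.8, 103.4 and 101.3 CPM in untreated cells. The 5 groups did not overlap, and they stood in the order both drugs, ruxolitinib, MCL, TNF-α, untreated. Its log2 change against TNF-α was -0.85 ± 0.05 with both drugs (adjusted p = 1.98e-23, edgeR's quasi-likelihood test) and -0.51 ± 0.05 with ruxolitinib (adjusted p = 2.71e-13). With MCL the value was -0.09 ± 0.05, which did not pass.

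POLR1A (chr2:86020216-86106155) had 164.7, 170.3 and 164.5 CPM with both drugs, 207.5, 197.0 and 211.5 with MCL, 170.1, 168.5 and 172.5 with ruxolitinib, 207.7, 195.7 and 211.6 with TNF-α alone, and 222.8, 230.2 and 232.0 CPM in untreated cells. The libraries with both drugs and with ruxolitinib formed a low set that overlapped each other, and the MCL and TNF-α libraries covered almost the same range. Its log2 changes against TNF-α were -0.30 ± 0.04 with both drugs and -0.27 ± 0.04 with ruxolitinib, and 0.00 with MCL, where the 95% interval ran from -0.08 to 0.09. POLR1C fell by 0.61 with both drugs and by 0.38 with ruxolitinib.

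POLR1E differed from the other subunits. It had 34.4, 29.6 and 28.6 CPM with both drugs, 37.3, 36.3 and 36.8 with MCL, 24.5, 26.8 and 25.2 with ruxolitinib, 32.9, 31.3 and 32.3 with TNF-α alone, and 38.9, 39.2 and 42.0 CPM in untreated cells. Ruxolitinib libraries were the lowest and did not overlap any other group, and the libraries with both drugs spanned the TNF-α values. Its log2 change against TNF-α was -0.33 ± 0.07 with ruxolitinib and -0.06 ± 0.07 with both drugs, and with both drugs set against ruxolitinib it rose by 0.27 ± 0.07. Its rise with MCL (adjusted p = 0.0276, edgeR's quasi-likelihood test) lost the call without MCL replicate 1 (0.19), MCL replicate 3 (0.20), TNF-α replicate 2 (0.18) or TNF-α replicate 3 (0.20).

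Among the initiation factors, UBTF encodes UBF, which binds the ribosomal DNA and opens it for transcription, TAF1D is a subunit of the SL1 complex, and RRN3 links the polymerase to SL1. UBTF had 261.7, 258.3 and 268.0 CPM with both drugs, 267.9, 265.9 and 263.2 with MCL, 224.4, 234.8 and 222.9 with ruxolitinib, 237.3, 235.1 and 233.9 with TNF-α alone, and 265.5, 279.4 and 271.4 CPM in untreated cells. The groups with MCL, alone or with ruxolitinib, were above the TNF-α libraries without overlap, and the ruxolitinib libraries reached up to them. Its log2 change against TNF-α was 0.16 ± 0.03 with both drugs (adjusted p = 7.45e-05, edgeR's quasi-likelihood test), 0.17 ± 0.03 with MCL and -0.05 with ruxolitinib. UBTF overlaps 2 opposite-strand transcripts.

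RRN3 fell in each drug group against TNF-α, with log2 changes of -0.16 with both drugs, -0.16 with MCL and -0.21 with ruxolitinib. TAF1D fell by 0.34 with both drugs and by 0.18 with ruxolitinib, and its value with MCL was -0.05, which did not pass. The RNA polymerase I genes summed to 705.6 ± 5.17 CPM with both drugs, 814.1 ± 4.71 with MCL, 692.6 ± 4.64 with ruxolitinib, 800.4 ± 8.55 with TNF-α alone and 888.5 ± 3.56 CPM in untreated cells (SD, n = 3 each). This sum was lowest with ruxolitinib, whereas in each of the other 4 roles the sum was lowest with both drugs. UBTF, the largest part of the polymerase sum, averaged 262.7 CPM with both drugs and 227.4 with ruxolitinib. POLR1A, POLR1B, POLR1C and TAF1D had their lowest means with both drugs, and POLR1E, RRN3 and UBTF with ruxolitinib. The median log2 change against TNF-α was -0.30 with both drugs and -0.27 with ruxolitinib over the polymerase genes. Over the small-subunit factors these medians were -0.25 and -0.29.

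The snoRNP core falls into 2 machines. NOP56, NOP58 and FBL, the methyltransferase fibrillarin, belong to box C/D particles, which methylate ribose; DKC1, the pseudouridine synthase dyskerin, with NHP2 and GAR1 belongs to box H/ACA particles. NOP56 (chr20:2652145-2658393) had 222.4, 226.3 and 218.2 CPM with both drugs, 331.3, 338.7 and 323.8 with MCL, 300.2, 313.0 and 301.9 with ruxolitinib, 374.4, 362.6 and 377.8 with TNF-α alone, and 405.1, 392.9 and 407.1 CPM in untreated cells. No group overlapped another, and the step between both drugs and the nearest group, ruxolitinib, was the widest. Its log2 change against TNF-α was -0.74 ± 0.03 with both drugs (adjusted p = 2.16e-28, edgeR's quasi-likelihood test), -0.17 ± 0.03 with MCL and -0.28 ± 0.03 with ruxolitinib.

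NOP58 (chr2:202265716-202303666) had 125.6, 129.1 and 128.9 CPM with both drugs, 175.8, 181.4 and 170.1 with MCL, 159.0, 165.6 and 167.9 with ruxolitinib, 189.2, 183.7 and 184.5 with TNF-α alone, and 192.1, 189.8 and 195.8 CPM in untreated cells. The libraries with both drugs stood far below the rest, and the TNF-α and untreated libraries lay side by side without passing, at a log2 change of -0.05. Against TNF-α it fell by 0.54 ± 0.04 with both drugs and by 0.18 ± 0.04 with ruxolitinib, and its value with MCL was -0.08 ± 0.04, which did not pass. FBL, the third box C/D protein, had smaller values: -0.13 with both drugs, 0.04 with MCL and -0.01 with ruxolitinib. Its call with both drugs (adjusted p = 0.0144, edgeR's quasi-likelihood test) was lost without replicate 1 (-0.10) or 2 (-0.10) of both drugs. The same held without TNF-α replicate 1 (-0.12) or 3 (-0.11), in DESeq2 (-0.11) and with library totals (-0.06).

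Of the box H/ACA genes, DKC1 fell by 0.42 with both drugs and by 0.19 with ruxolitinib, and GAR1 fell by 0.24 with both drugs. The GAR1 value with ruxolitinib was -0.20, a call lost without TNF-α replicate 2 (-0.18) or 3 (-0.14) and without ruxolitinib replicate 1 (-0.18) or 2 (-0.17). In DESeq2 this call was lost too (-0.18). NHP2 had log2 changes of -0.12 with both drugs, -0.07 with MCL and 0.03 with ruxolitinib. Its call with both drugs was lost without TNF-α replicate 3 (-0.09) or replicate 2 of both drugs (-0.09). The same held in DESeq2 (-0.10), with DESeq2's size factors (-0.10), with library totals (-0.05) and with no filter (-0.10).

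The scaffold group holds NCL and NPM1, the chaperone-like NOLC1, which binds snoRNPs, the RNA helicase DDX21, which joins rRNA transcription and processing, and LYAR, a nucleolar zinc-finger protein. NOLC1 (chr10:102152176-102163871) had 285.1, 291.2 and 297.1 CPM with both drugs, 380.1, 380.3 and 381.9 with MCL, 344.1, 347.4 and 344.1 with ruxolitinib, 422.4, 411.8 and 416.8 with TNF-α alone, and 461.1, 436.0 and 456.5 CPM in untreated cells. The 5 groups were fully apart. Its log2 change against TNF-α was -0.52 ± 0.03 with both drugs (adjusted p = 1.13e-21, edgeR's quasi-likelihood test), -0.13 ± 0.03 with MCL and -0.27 ± 0.03 with ruxolitinib.

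DDX21 (chr10:68956128-68985073) had 379.8, 378.0 and 393.3 CPM with both drugs, 484.6, 475.1 and 473.2 with MCL, 368.3, 372.0 and 383.2 with ruxolitinib, 480.0, 492.3 and 498.5 with TNF-α alone, and 539.6, 515.3 and 533.9 CPM in untreated cells. It followed the POLR1A arrangement: the 2 groups with ruxolitinib overlapped each other at the bottom, and the MCL libraries overlapped those with TNF-α. Its log2 change was -0.35 ± 0.03 with both drugs and -0.39 ± 0.03 with ruxolitinib against TNF-α, and both drugs set against ruxolitinib gave 0.04, with a 95% interval of -0.04 to 0.11.

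LYAR fell by 0.68 with both drugs, 0.23 with MCL and 0.27 with ruxolitinib, and NCL fell by 0.37 with both drugs and by 0.16 with ruxolitinib. NPM1 varied least among the scaffold genes, with 1425, 1387 and 1493 CPM with both drugs, 1465, 1547 and 1460 with MCL, 1422, 1413 and 1443 with ruxolitinib, 1523, 1521 and 1527 with TNF-α alone, and 1550, 1473 and 1559 CPM in untreated cells. Its log2 change was -0.09 with both drugs and -0.10 with ruxolitinib against TNF-α, both called. The first call was lost without replicate 1 (-0.08) or 2 (-0.06) of both drugs, in DESeq2 (-0.06), with DESeq2's size factors (-0.06), with library totals (-0.01) and with no filter (-0.07). The second was lost without any of the 3 TNF-α libraries (-0.09 each) and without ruxolitinib replicate 1 (-0.09) or 2 (-0.07), and with DESeq2's size factors, with library totals, with no filter and with only the groups compared (-0.07 to -0.08).

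**Figure D4:**
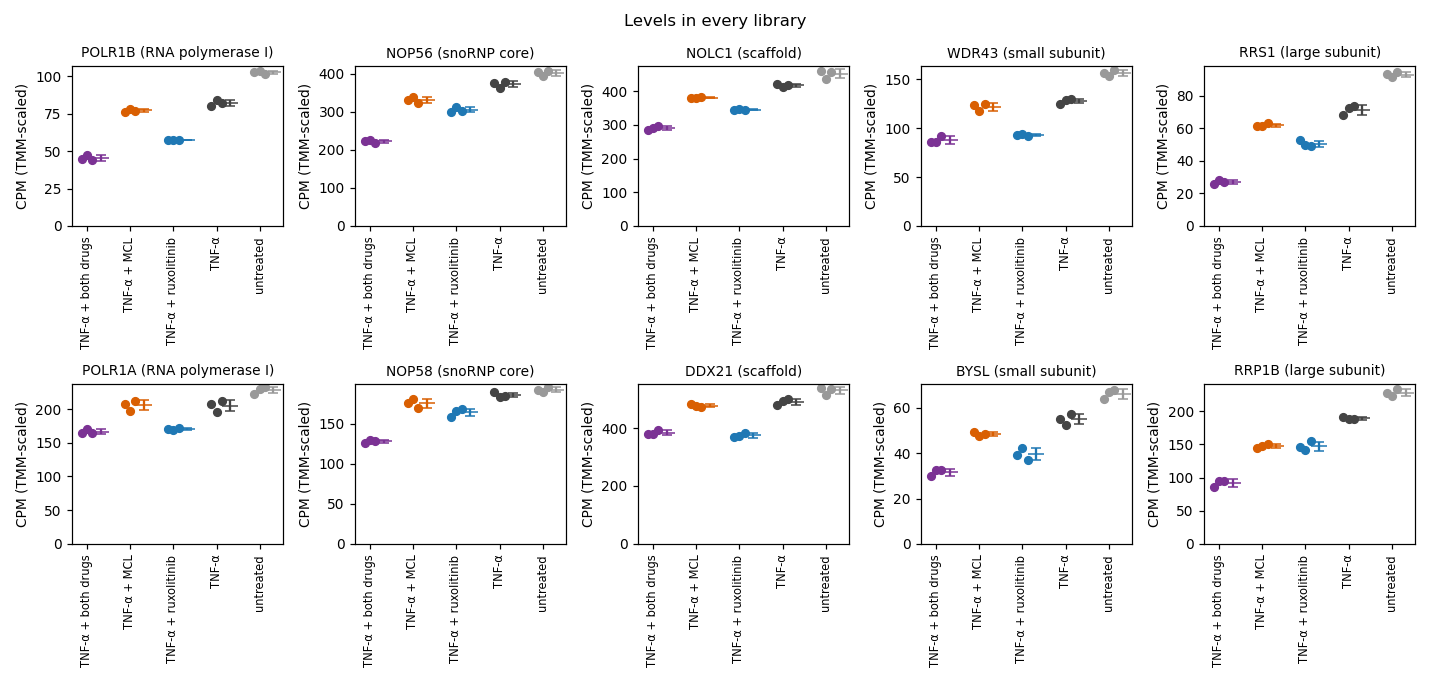
CPM in each library for the 2 members of each role with the smallest p among the 5 groups, with points for libraries and a bar with whiskers for mean ± SD (n = 3). Every vertical axis starts at 0. In POLR1A, DDX21 and WDR43 both groups with ruxolitinib sit close together, and in NOP56, NOP58, RRS1 and RRP1B the group with both drugs sits well below ruxolitinib.

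The small-subunit factors of the module include 5 genes of the UtpA complex: UTP4, UTP15, WDR43, WDR75 and HEATR1. UtpA binds the start of the precursor and is needed for rRNA transcription, and its genes outside the module are not counted here. All 5 fell with both drugs, by 0.19 to 0.54, all 5 fell with ruxolitinib, by 0.18 to 0.46, and none passed with MCL, where values ran from -0.09 to 0.05. WDR43 (chr2:28894643-28948222) had 86.4, 85.4 and 92.1 CPM with both drugs, 123.5, 117.2 and 125.3 with MCL, 93.0, 93.9 and 92.2 with ruxolitinib, 125.2, 128.8 and 129.8 with TNF-α alone, and 156.5, 153.4 and 159.6 CPM in untreated cells. The groups with ruxolitinib stood next to each other, and untreated libraries were clear of all others. Its log2 change was -0.54 ± 0.04 with both drugs and -0.46 ± 0.04 with ruxolitinib against TNF-α (adjusted p = 7.17e-18 and 5.21e-14, edgeR's quasi-likelihood test).

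BYSL (chr6:41921188-41933046), which encodes bystin, a late assembly factor of the small subunit, had 29.8, 32.6 and 32.4 CPM with both drugs, 49.4, 47.5 and 48.5 with MCL, 39.3, 42.2 and 37.1 with ruxolitinib, 55.3, 52.7 and 57.3 with TNF-α alone, and 63.7, 66.9 and 68.1 CPM in untreated cells. The 5 groups did not overlap. It fell by 0.80 ± 0.06 with both drugs, 0.18 ± 0.06 with MCL and 0.48 ± 0.06 with ruxolitinib against TNF-α. The MCL call was lost without TNF-α replicate 3 (-0.15) or MCL replicate 2 (-0.17), and with no filter (-0.16).

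RRP12, an export factor, and RRP9, which binds the U3 snoRNA, moved in opposite directions with the 2 drugs. RRP12 had 88.5, 89.1 and 82.3 CPM with both drugs, 116.0, 107.9 and 111.9 with MCL, 78.5, 83.7 and 76.4 with ruxolitinib, 97.5, 97.9 and 97.1 with TNF-α alone, and 105.8, 115.7 and 98.5 CPM in untreated cells. MCL libraries lay above and ruxolitinib libraries below the TNF-α libraries, and the untreated libraries were the most spread. Its log2 change against TNF-α was -0.17 with both drugs, 0.20 with MCL and -0.29 with ruxolitinib. The rise of RRP9 with MCL, 0.16 ± 0.06, was lost without MCL replicate 3 (0.08) or TNF-α replicate 1 (0.16), 2 (0.16) or 3 (0.17). The same held in DESeq2 (0.17) and with a minimum count of 50 (0.15).

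The endonuclease NOB1 and its partner PNO1, which complete the small-subunit rRNA, fell by 0.26 and 0.24 with both drugs and by 0.22 and 0.35 with ruxolitinib. The NOB1 value with ruxolitinib was not called without TNF-α replicate 1 (-0.18) or ruxolitinib replicate 3 (-0.12). With MCL neither passed, at 0.12 and 0.15. All 14 small-subunit factors were called higher with MCL than with ruxolitinib, against 14.3% of all tested genes. The calls of HEATR1, NOP14, UTP20, UTP4 and WDR75 were each lost under some alternative. The CPM of the 14 factors summed to 932.4 ± 7.59 with both drugs, 1162 ± 16.1 with MCL, 954.4 ± 22.4 with ruxolitinib, 1157 ± 9.09 with TNF-α alone and 1285 ± 9.89 in untreated cells (SD, n = 3 each).

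Large-subunit factors held the deepest changes of the module. RRS1 (chr8:66429028-66430733), which brings the 5S ribonucleoprotein into the particle, had 25.5, 28.2 and 26.9 CPM with both drugs, 61.3, 61.5 and 63.0 with MCL, 52.6, 49.6 and 49.3 with ruxolitinib, 67.9, 72.3 and 73.9 with TNF-α alone, and 93.2, 91.4 and 94.6 CPM in untreated cells. The 5 groups were fully apart, with both drugs far below ruxolitinib. It fell by 1.41 ± 0.06 with both drugs on the log2 scale, a fold of 0.377 (adjusted p = 3.68e-31, edgeR's quasi-likelihood test), by 0.20 ± 0.05 with MCL and by 0.50 ± 0.05 with ruxolitinib, all against TNF-α.

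RRP1B (chr21:43659548-43696079), a nucleolar protein of pre-60S particles, had 85.3, 95.1 and 95.5 CPM with both drugs, 144.1, 148.1 and 150.3 with MCL, 145.8, 141.6 and 155.1 with ruxolitinib, 192.0, 188.3 and 188.6 with TNF-α alone, and 227.8, 223.7 and 233.4 CPM in untreated cells. The single drugs overlapped each other between TNF-α alone and both drugs. It fell by 1.04 ± 0.04 with both drugs (adjusted p = 1.57e-31, edgeR's quasi-likelihood test), and by 0.36 ± 0.04 with either drug alone, against TNF-α.

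PES1, BOP1 and WDR12 form the PeBoW complex, which processes the large-subunit rRNA. All 3 fell with both drugs, by 0.49, 0.36 and 0.35, and WDR12 fell by 0.29 with ruxolitinib. PES1 had a log2 change of -0.15 with ruxolitinib, a call lost without TNF-α replicate 3 (-0.10), and BOP1 one of -0.11 that did not pass. With MCL the 3 values ran from -0.10 to 0.03 and none passed. NOP16, a component of large-subunit precursors, fell by 0.81 with both drugs and by 0.50 with ruxolitinib, and its value with MCL was -0.02. GNL3, which encodes the GTPase nucleostemin, fell by 0.42 with both drugs. Its value with ruxolitinib was -0.14, a call lost without TNF-α replicate 3 (-0.11) or ruxolitinib replicate 2 (-0.12).

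NOP2, an rRNA methyltransferase, was the member with the fewest reads, 21 to 50 per library. It had 1.22, 1.15 and 1.17 CPM with both drugs, 1.24, 1.50 and 1.36 with MCL, 1.58, 1.68 and 2.34 with ruxolitinib, 3.29, 1.98 and 1.62 with TNF-α alone, and 1.31, 1.72 and 1.73 CPM in untreated cells. One TNF-α library stood apart, and the fall of 0.95 ± 0.29 with both drugs (adjusted p = 0.0046, edgeR's quasi-likelihood test) was not called without TNF-α replicate 1, at -0.61 and an adjusted p of 0.118. With MCL its log2 change was -0.74 ± 0.29, which did not pass (adjusted p = 0.0525, edgeR's quasi-likelihood test). The read-through gene AC006064.6, which overlaps NOP2 on the same strand, had 0 reads in all libraries. PPAN, with 91 to 248 reads per library, fell by 0.87 with both drugs, and its read-through PPAN-P2RY11 had 14 reads in all. How reads shared by overlapping genes were assigned was not examined. Few reads on a read-through gene thus do not show its absence, and the levels of NOP2 and PPAN are uncertain.

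MCL and ruxolitinib, compared with each other, differed in most of the module. 38 of 48 members were higher with MCL than with ruxolitinib, 0 were lower and 10 did not pass, while 14.3% of all tested genes were called higher and 13.1% lower. The median log2 difference was 0.20 over members and -0.01 over all tested genes. POLR1E (0.53 ± 0.07), PNO1 (0.50 ± 0.07) and RRP12 (0.49 ± 0.05) differed most. The smallest called differences were those of NCL (0.08), NOP58 (0.10) and NOP14 (0.12). Each of these 3 calls was lost without MCL replicate 1 (0.09 for NCL, 0.10 for NOP58 and 0.11 for NOP14), MCL replicate 2 (0.07, 0.08 and 0.10 in the same order) or ruxolitinib replicate 1 (0.07, 0.08 and 0.09), and that of NOP14 also without ruxolitinib replicate 3 (0.08). All 3 were also lost with a minimum count of 50 (0.07, 0.08 and 0.10) and with only the groups compared (0.08, 0.10 and 0.12). The NOP58 call was lost with no filter (0.11), and the NOP14 call in DESeq2 (0.12). RRP1B did not differ detectably, at 0.00 with a 95% interval of -0.09 to 0.09. MCL libraries lay above all ruxolitinib libraries in 39 members, against 18.9% of tested genes. Without a single library, between 28 and 38 members were called higher; 28 calls remained without MCL replicate 2.

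Adding MCL to ruxolitinib lowered 25 members, raised 4 and left 19 that did not pass, against 26.8% of tested genes lower and 24.8% higher. With library totals in place of TMM factors, 20 members were lower and 9 higher. RRS1 (-0.91 ± 0.06), RRP1B (-0.68 ± 0.04) and PPAN (-0.48 ± 0.13) fell by the most. POLR1E (0.27), DDX10 (0.23), UBTF (0.21) and RRP12 (0.12) rose. The RRP12 call was lost without replicate 1 (0.11) or 2 (0.10) of both drugs, without ruxolitinib replicate 1 (0.11) or 3 (0.09), and in DESeq2 (0.13). By role, 11 of 16 large-subunit factors and 5 of 6 snoRNP genes fell in this comparison, and 3 of 14 small-subunit factors did. These role counts were not compared by a test.

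Adding ruxolitinib to MCL lowered 41 members and raised 0, against 22.0% of tested genes lower and 19.6% higher, with a median log2 change of -0.37 over members and -0.01 over all tested genes. RRS1 (-1.20 ± 0.06), NOP16 (-0.79 ± 0.07) and POLR1B (-0.76 ± 0.05) fell by the most. 24 members were lower with both drugs than with either drug alone, against 17.3% of all tested genes, and HEATR1, NOP2, NPM1 and RRN3 passed in neither of these 2 comparisons. Among the 24, FBL, GRWD1, NOP14, POLR1C and WDR74 each lost the call against ruxolitinib under some alternative.

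The combination was then set against the sum of the single-drug log2 changes. The difference equals the log2 effect of MCL with ruxolitinib present minus that without it, and values below 0 mean a deeper fall than the sum. 14 members were called below the sum, 1 above it and 33 did not pass, against 12.8% of all tested genes called below and 12.2% above, and the median was -0.12 over members and 0.01 over all tested genes. RRS1 fell by 1.41 with both drugs, and the single-drug changes summed to -0.70, a difference of -0.70 ± 0.08 (adjusted p = 6.31e-11, edgeR's quasi-likelihood test). RRP1B differed by -0.32 ± 0.06, GNL3 by -0.31 ± 0.05 and POLR1B by -0.25 ± 0.07.

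By role, 8 of 16 large-subunit factors, 3 of 6 snoRNP genes (NOP56, NOP58 and DKC1), 1 of 5 scaffold genes (NCL), 1 of 14 small-subunit factors (NOP14) and 1 of 7 polymerase genes (POLR1B) were called below the sum, and RRN3 was called above it by 0.21. The 5 UtpA genes of the module had values from -0.14 to 0.16, and none passed. Of the PeBoW genes, PES1 and BOP1 were called below the sum, at -0.24 and -0.28, and WDR12 was at -0.05. Without a single library the number called below the sum ran from 12 to 19. The RRN3 call was lost without replicate 1 of both drugs (0.18) or ruxolitinib replicate 2 (0.15), the NCL call without replicate 1 of both drugs (-0.11), and the NOP14 call without ruxolitinib replicate 2 (-0.14) or TNF-α replicate 1 (-0.17).

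**Figure D5:**
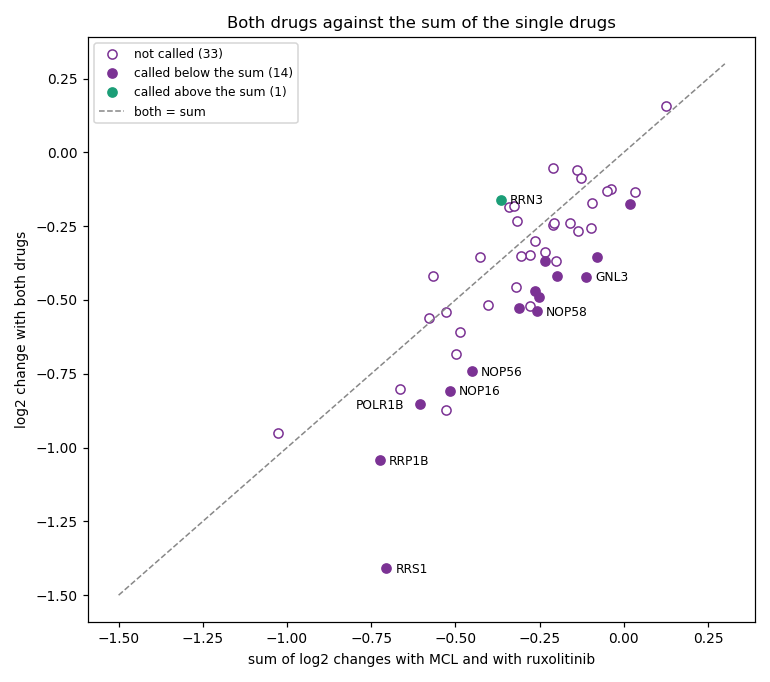
Log2 change with both drugs (vertical) against the sum of the log2 changes with MCL and with ruxolitinib (horizontal), all against TNF-α, 1 point per member. Filled points are the 14 called below and the 1 called above the dashed line of equality, and RRS1 lies 0.70 below it.

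Members with and without CACGTG near the start were compared as a description. With ruxolitinib against TNF-α the median log2 change was -0.29 over the 11 members with the hexamer and -0.26 over the 29 without it, and with both drugs it was -0.46 and -0.35. Against untreated cells the order was the same with both drugs (-0.55 with the hexamer and -0.46 without it). The order was the other way with ruxolitinib (-0.36 and -0.40) and with TNF-α alone (-0.09 and -0.14). With MCL both medians were close (-0.16 and -0.17). The 8 members with no entry in the promoter table, which include RRS1, RRP1B, NOP58 and NOLC1, are in neither set. Over the 48 members and 11 contrasts, the correlation of the log2 change with the log2 level ran from r = -0.08, for the difference from the sum of the single drugs, to 0.42, for ruxolitinib against TNF-α. The correlation with log2 gene-model length ran from -0.05, for ruxolitinib against TNF-α, to 0.44, for the difference from the sum. These are correlations across genes of the same libraries, and genes are not independent replicates.

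Genes of the same pathway that are not members were read from a list of 108 symbols, of which 104 were in the table and tested. With ruxolitinib against TNF-α, 47 of 104 (45.2%) fell and 1 (0.962%) rose, against 10.6% and 5.15% of all tested genes, with a median log2 change of -0.12, against -0.27 over the members. With both drugs 60 (57.7%) fell and 9 (8.65%) rose, against 29.3% and 25.5% of all tested genes, with a median of -0.23 against -0.36 over the members. With MCL 12 (11.5%) fell and 8 (7.69%) rose, both shares below the 15.1% and 10.9% of all tested genes, with a median of 0.01. With TNF-α against untreated cells 39 (37.5%) fell and 1 (0.962%) rose, against 12.5% and 14.1% of all tested genes, with a median of -0.11. MCL against ruxolitinib gave 51 (49.0%) higher and 3 (2.88%) lower, against 14.3% and 13.1% of all tested genes.

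Among the other polymerase I genes, CD3EAP, a polymerase subunit, fell by 1.29 ± 0.19 with both drugs and by 0.68 ± 0.18 with ruxolitinib, TAF1B of SL1 fell by 0.71 with both drugs, and TWISTNB, a polymerase subunit, fell by 0.17 with ruxolitinib. CD3EAP overlaps ERCC1 and PPP1R13L. Among the small-subunit factors, IMP3 of the U3 particle fell by 1.38 ± 0.09 with both drugs, WDR3 fell by 0.56 with both drugs and by 0.46 with ruxolitinib, and NOL6 fell by 0.32 with ruxolitinib. DDX52, a helicase, and the kinase RIOK2 rose with both drugs, by 0.31 and 0.22. IMP3 overlaps SNX33.

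Of the large-subunit factors outside the module, MAK16 fell by 0.95 with both drugs and by 0.51 with ruxolitinib, and the GTPase GTPBP4 fell by 0.52 and 0.33 in the same 2 groups. RSL24D1 and SBDS, which act late in large-subunit maturation, rose with both drugs, by 0.50 ± 0.04 and 0.38 ± 0.06, while SBDS fell by 0.30 with ruxolitinib, and NOP53 rose by 0.15 with ruxolitinib. The snoRNP assembly factors NUFIP1 (-0.57 with both drugs, -0.37 with ruxolitinib), RUVBL1 (-0.29 with both drugs) and NAF1 (-0.31 with ruxolitinib) fell. MAK16 overlaps TTI2, SBDS overlaps TYW1, NOP53 overlaps NOP53-AS1, and RUVBL1 overlaps EEFSEC and SEC61A1.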

How the data were processed

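The deposited table holds raw counts of reads per gene, whole numbers made by the authors, for 15 libraries, with a gene length column that is another quantity and not an expression value. Per the submitters' processing notes the tools were HISAT2 2.0.5 with featureCounts 1.5.0-p3 and DESeq2 1.16.1, and the builds hg38 and mm10 appear without a stated role. All 58735 genes had the start, end and symbol of GENCODE 29 (hg38). The sources used here do not state strand use or the handling of multiply matching reads. Control columns were read as untreated cells.

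The low-count filter was filterByExpr of edgeR (minimum count 10), and 16146 genes stayed. edgeR 4.0.16 in R 4.3.3 (limma 3.58.1) fitted 1 coefficient per group over all 15 libraries with TMM scaling, giving 10 residual degrees of freedom and a biological coefficient of variation of 0.0404. The robust quasi-likelihood test was adjusted by Benjamini-Hochberg over the tested genes, and a change was called at an adjusted p under 0.05. The SE is the log2 fold change over the square root of F. Levels are CPM with TMM factors, computed here. The steps were tested on simulated data. Alternatives were DESeq2 1.42.0, its size factors, library totals, no filter, a minimum count of 50, a replicate block, only the groups compared, and leaving out each library. Within groups, chi-square per degree of freedom between library pairs was 2.02 to 4.07, so none was treated as a copy.

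Members and lists were chosen with earlier results of these data known. Per-library values are given for the 2 members of each role with the smallest p among the 5 groups, and changes for up to 3 called members at each end of a comparison, for all 7 polymerase genes and for the members of the named complexes. Other pathway genes were named, up to 2 per direction and role, by the smallest p. Any further gene was named with its values in view. The rule would have shown 250 bases of promoter for 2 members; as these bases are annotated as untranslated region, 30-base windows are shown instead.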

Additional observations from a re-analysis of the deposited data

Results flagged for a closer look

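For 15 members the effect of MCL on the log2 scale differed depending on whether ruxolitinib was present, by the interaction term of edgeR's quasi-likelihood test at an adjusted p under 0.05. The values are the effect of MCL with ruxolitinib minus its effect without it. Among large-subunit factors the differences were -0.70 for RRS1, -0.32 for RRP1B, -0.31 for GNL3, -0.29 for NOP16, -0.28 for BOP1, -0.24 for PES1, -0.22 for MRTO4 and -0.21 for DDX56. The snoRNP genes NOP56, NOP58 and DKC1 had -0.29, -0.28 and -0.22. The other genes below 0 were POLR1B with -0.25, NOP14 with -0.20 and NCL with -0.14. The NOP16 call was lost without replicate 1 (-0.27) or 3 (-0.26) of both drugs, MCL replicate 2 (-0.26), ruxolitinib replicate 1 (-0.26) or TNF-α replicate 1 (-0.26). RRN3, which links RNA polymerase I to its promoter complex, had 0.21, the single value above 0. Of all tested genes, 12.8% were called below 0 and 12.2% above.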

How the results depend on the processing

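No member's call turned its direction under any alternative run. With library totals in place of TMM factors, 9 members were called higher with both drugs against ruxolitinib (4 with TMM) and 2 above the sum of the single drugs (1 with TMM). With a minimum count of 50, 1 member was called lower with MCL against ruxolitinib (0 with the minimum of 10) and 2 above the sum. Leaving out 1 library at a time, 2 to 4 members were called higher with MCL against TNF-α (2 without TNF-α replicate 2, TNF-α replicate 3 or MCL replicate 3), 0 to 1 higher with MCL against untreated cells (1 without untreated replicate 2), and 0 to 2 above the sum (0 without replicate 1 of both drugs or ruxolitinib replicate 2, 2 without MCL replicate 2). The cause was not tested. In the same fits 41 to 45 members fell with both drugs, 8 to 9 with MCL and 34 to 39 with ruxolitinib against TNF-α, and 22 to 30 with TNF-α against untreated cells. The calls kept under all alternatives were 38 of 46 with both drugs, 8 of 13 with MCL, 32 of 41 with ruxolitinib, 19 of 28 with TNF-α against untreated cells and 11 of 15 for the interaction. Between drug groups, 22 of 29 were kept with both drugs against ruxolitinib, 40 of 41 with both drugs against MCL and 26 of 38 with MCL against ruxolitinib.

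Replicate numbers did not pair the libraries: over 30 same-numbered pairs of libraries the correlation of deviations ran from -0.0483 to 0.0483. With the replicate block, 29 members fell with TNF-α against untreated cells (28 without the block), 15 were below the sum (14 without it), and the other numbers of members called were the same or within 1.5 times. Small changes are limited by depth in NOP2 and PPAN.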
